A study of Mus musculus with 12 samples.

Results

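Endothelial cells line the blood vessels, the lymphatics and the chambers of the heart, and the genes that give them their identity served as a measure of the vascular RNA in whole-heart libraries. The 38 genes described here were taken by name from a list of endothelial identity and angiogenesis genes and were found by their Ensembl identifiers among the 53700 genes of the count table. All 38 were among the 17847 genes with enough counts to be tested. Hearts came from 6 ac-WT mice (CYB5R3wt/wt) and 6 ac-CYB5R3–KO mice (CYB5R3fl/fl). Both groups carried Myh6-CreERT2, a tamoxifen-activated Cre recombinase driven by a cardiomyocyte promoter, and both were injected with tamoxifen (33 mg/kg/d on 5 days) when 10 to 13 weeks old. Hearts were collected 5 days later. The animals were of a mixed FVB and B6 origin backcrossed into C57BL/6J, and the study worked with male mice. With this promoter, deletion was aimed at cardiomyocytes and not at endothelial cells. The comparison asks whether the RNA of the vessel lining differed in hearts whose cardiomyocytes had lost CYB5R3, a flavoprotein that reduces cytochrome b5, ubiquinone and heme iron.

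In the adult heart, endothelial cells are numerous and most of them form the capillaries between cardiomyocytes. VEGF and angiopoietin ligands act on their receptor tyrosine kinases, junction proteins such as VE-cadherin seal the layer, ETS and SOXF transcription factors keep its identity, and the force of flowing blood sets the level of Klf2 and its targets. Capillary endothelial cells of the heart also take up fatty acids for the muscle, a task in which Gpihbp1, Fabp4 and Cd36 take part, and Plvap forms the diaphragms of caveolae and fenestrae in some vessels.

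ETS factors, of which Erg and Fli1 are members of the list, bind DNA around a GGAA core, and one longer form of it, AGGAAG or CTTCCT on the other strand, is marked in the promoters shown here. Other GGAA letters in them are not marked. RefSeq windows (GRCm38.p6) of the 250 bases before a start of transcription were at hand for 19 of the 38 genes. The letters AGGAAG, or CTTCCT for the other strand, stood in a window of 14 of these 19 genes (73.7%), against 32.3% of 27025 genes with a window. CGGAAG or CTTCCG was present for 1 of 19 (5.26%, against 15.3% of all genes), the SOX core ACAATG or CATTGT for 3 of 19 (15.8%, against 12.2%), and the KLF core CACCC or GGGTG for 16 of 19 (84.2%, against 54.5%). These are counts of letters, not of bound sites, and the ETS forms AGGAAG and CGGAAG cannot lie on the same bases. Aqp1, Rgcc and Klf2 are printed because their RNA was among the lower members below, and Flt1, Egfl7 and Eng as examples of windows that held this form more than once. Windows of Emcn, Notch4 and Ly6c1 did so too. Egfl7 also had windows with fewer copies, which are not printed. AGGAAG and CTTCCT are in capitals, and each sequence runs 5′ to 3′ on the gene's own strand. The window of Aqp1 was chr6:55336049-55336298 on the plus strand, that of Rgcc chr14:79301636-79301885 on the minus strand, and that of Klf2, which held neither AGGAAG nor CTTCCT, chr8:72318812-72319061 on the plus strand. Those of Flt1, Egfl7 and Eng were chr5:147726012-147726261 on the minus strand, chr2:26580833-26581082 on the plus strand and chr2:32646345-32646594 on the plus strand.
Aqp1: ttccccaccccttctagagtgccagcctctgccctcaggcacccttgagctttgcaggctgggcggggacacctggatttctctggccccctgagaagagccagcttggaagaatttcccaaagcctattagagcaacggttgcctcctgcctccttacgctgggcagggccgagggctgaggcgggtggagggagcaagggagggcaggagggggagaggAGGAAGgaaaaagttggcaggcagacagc
Rgcc: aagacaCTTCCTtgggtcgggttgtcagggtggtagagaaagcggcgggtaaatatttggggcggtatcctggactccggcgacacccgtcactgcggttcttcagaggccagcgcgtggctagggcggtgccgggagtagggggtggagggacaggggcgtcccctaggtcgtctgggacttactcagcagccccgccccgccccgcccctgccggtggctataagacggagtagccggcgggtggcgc
Klf2: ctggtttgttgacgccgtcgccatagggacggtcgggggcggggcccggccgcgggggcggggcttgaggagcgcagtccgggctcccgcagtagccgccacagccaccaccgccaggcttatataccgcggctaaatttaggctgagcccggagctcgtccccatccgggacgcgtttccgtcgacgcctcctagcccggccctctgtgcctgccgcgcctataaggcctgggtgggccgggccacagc
Flt1: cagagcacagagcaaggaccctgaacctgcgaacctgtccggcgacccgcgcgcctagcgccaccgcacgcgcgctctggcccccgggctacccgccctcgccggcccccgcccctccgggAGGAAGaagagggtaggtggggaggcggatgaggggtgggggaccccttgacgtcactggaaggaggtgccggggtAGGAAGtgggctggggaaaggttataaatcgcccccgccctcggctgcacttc
Egfl7: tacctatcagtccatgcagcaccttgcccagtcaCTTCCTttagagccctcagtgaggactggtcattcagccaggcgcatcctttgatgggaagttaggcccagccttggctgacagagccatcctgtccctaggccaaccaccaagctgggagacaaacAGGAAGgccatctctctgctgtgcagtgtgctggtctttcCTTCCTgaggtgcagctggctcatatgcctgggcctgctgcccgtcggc
Eng: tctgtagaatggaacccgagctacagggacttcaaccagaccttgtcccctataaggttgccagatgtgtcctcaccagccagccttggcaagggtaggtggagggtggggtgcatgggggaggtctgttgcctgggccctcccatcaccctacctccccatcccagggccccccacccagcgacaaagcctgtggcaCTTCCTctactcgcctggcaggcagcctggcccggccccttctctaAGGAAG

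Libraries held 43393183 to 53754284 counts assigned to genes. The targeted gene was lower in every ac-CYB5R3–KO heart: Cyb5r3 was 126 ± 38.4 CPM in ac-WT and 53.7 ± 9.07 CPM in ac-CYB5R3–KO hearts (CPM are counts divided by the library total and its TMM factor, a scaling by the trimmed mean of M values; mean ± SD, n = 6), with a log2 fold change of -1.22 (SE 0.19) and an adjusted p of 0.045 in edgeR's quasi-likelihood test, and the groups did not overlap. Cyb5r3 is expressed in many cell types, so its level in the endothelial cells alone is not given by these libraries. Libraries of ac-WT mice 2 and 3 stood apart, with TMM factors of 0.570 and 0.723 (0.988 to 1.22 in the other libraries) and with 35.3% and 34.8% of counts from mitochondrial genes (24.0% to 30.1% in the others). The main counts and the members at an unadjusted p below 0.05 are also given without this pair of libraries.

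The defining markers showed a heart with abundant endothelial RNA in both groups. Pecam1 (CD31, an adhesion molecule at endothelial contacts) measured 152, 93.4, 101, 76.3, 99.8 and 85.2 CPM in ac-WT mice 1 to 6 and 94.5, 95.1, 152, 106, 120.1 and 91.1 CPM in ac-CYB5R3–KO mice 1 to 6. Its level was 101 ± 26.5 CPM in ac-WT and 109.8 ± 23.1 CPM in ac-CYB5R3–KO hearts, the ranges overlapped, and the log2 fold change of 0.12 (SE 0.17) had an unadjusted edgeR p of 0.511. Mouse 1 of the ac-WT group was the one high value among controls. Cdh5, which encodes VE-cadherin of the adherens junctions, ranged from 70.2 to 188 CPM in the ac-WT group (median 99.3 CPM) and from 81.1 to 148 CPM in the ac-CYB5R3–KO group (median 104 CPM), with a log2 fold change of -0.028 (SE 0.23) and an edgeR p of 0.904. Vwf, the clotting factor stored in endothelial granules, ranged from 50.9 to 77.1 CPM in the ac-WT group (median 64.4 CPM) and from 40.1 to 123 CPM in the ac-CYB5R3–KO group (median 72.6 CPM), with a log2 fold change of 0.27 (SE 0.22) and an edgeR p of 0.251. None of these markers passed the test, and the SE of each log2 fold change, between 0.17 and 0.23, shows the precision that 6 mice per group gave.

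Of the 38 genes, 28 had a lower and 10 a higher mean in ac-CYB5R3–KO hearts by the sign of the fitted log2 fold change. No member had an adjusted edgeR p below 0.05, against 0.101% of all tested genes. At an unadjusted p below 0.05, 6 members were lower (Sox17, Klf2, S1pr1, Gpihbp1, Aqp1 and Rgcc), where 9.73% of all tested genes were lower at that p, and 1 was higher (Plvap), where 4.91% of all genes were. Those shares of all genes are the background of both counts, and no p is given for the list. The members' median log2 fold change was -0.13, and that over all tested genes was -0.0074, with 51.2% of all genes lower. None of the members had groups that did not overlap, lower or higher, against 1.04% of all genes lower and 0.51% higher. DESeq2 gave the same counts of 6 and 1 at its unadjusted p, where 10.6% and 5.73% of all genes were lower and higher, and an adjusted p below 0.05 for 1 member, Plvap, at 0.0198, against 2.53% of all genes in that test. In bulk tissue, fewer endothelial cells and less RNA per cell cannot be told apart.

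**Figure D1:**
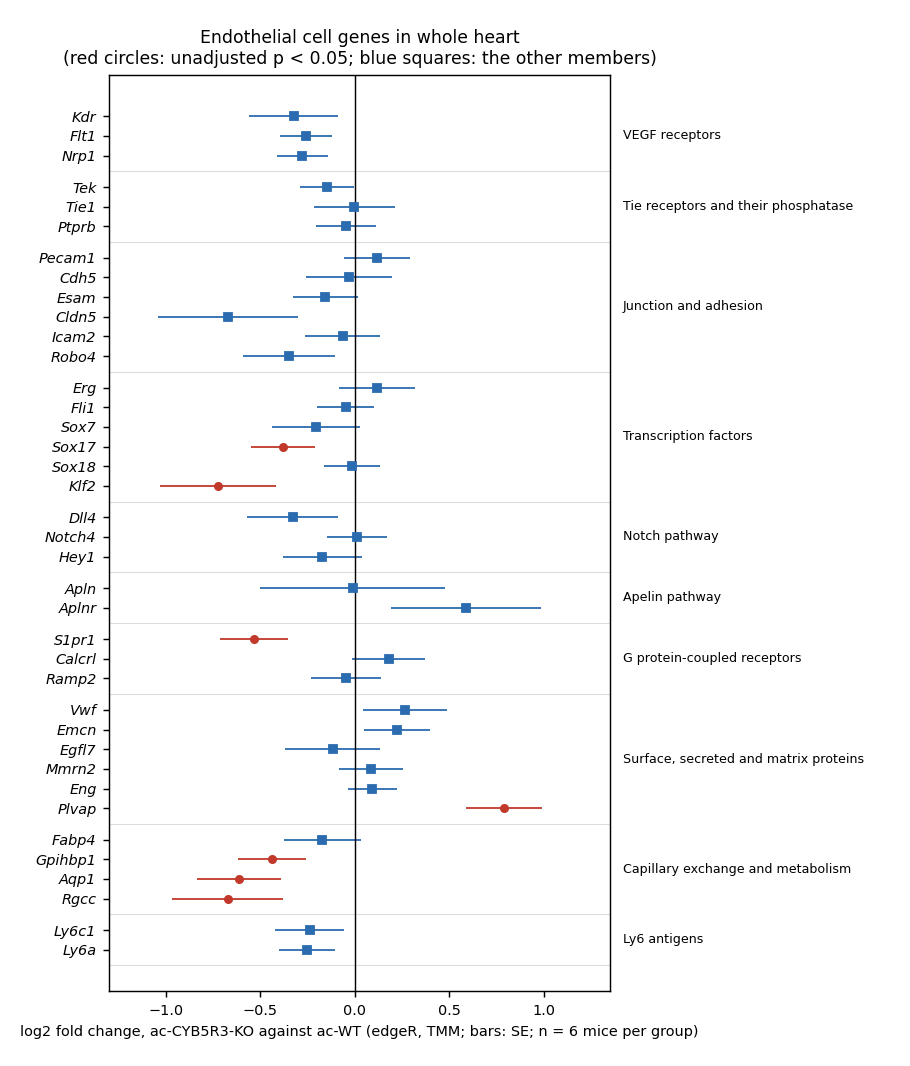
Fitted log2 fold change of each of the 38 endothelial cell genes, ac-CYB5R3–KO against ac-WT (x axis), with genes on the y axis grouped by role, points from edgeR, bars of 1 SE and 6 mice per group. Red circles are members with an unadjusted p below 0.05; Plvap at 0.79 is the only one of them right of 0, and Klf2 at -0.73 lies farthest to the left.

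The count of lower members depended on single mice and on the scaling. Without ac-WT mice 2 and 3 together, 0 members were lower at an unadjusted edgeR p below 0.05 and 1 was higher, the median log2 fold change was -0.0073, and 4.54% and 3.44% of all genes were lower and higher. Of the 38 members, 3 were lower without ac-WT mouse 1 (10.9% of all genes were), 2 without ac-WT mouse 2 (6.17%), 3 without ac-WT mouse 3 (6.9%) and 10 without ac-WT mouse 6 (11.6%). With 1 ac-CYB5R3–KO mouse left out, 3 were lower without mouse 1 (7.95% of all genes) and 2 without mouse 4 (6.85%). Higher members numbered 3 without ac-WT mouse 1 (6.12% of all genes), when Aplnr and Emcn joined Plvap. Under total-count scaling the median log2 fold change over all genes was 0.26 in place of -0.0074 and that over members 0.19 in place of -0.13, with 0 members lower and 2 higher (Plvap and Emcn), where 2.06% of all genes were lower and 9.45% higher. Relative to the median of all genes, the members' median was -0.12 with TMM (27 of 38 below it) and -0.065 with total counts (24 of 38 below it), and 35 of 38 kept their side.

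Endothelial genes varied widely between mice of the same genotype, and the same mice stood high or low for many of them. The summed level of the 38 genes was 2804 ± 607 CPM in ac-WT hearts (range 1969 to 3540) and 2485 ± 466.4 CPM in ac-CYB5R3–KO hearts (range 2017 to 3238), so the ranges overlapped. Fabp4 was the largest part, at 683 CPM in ac-WT and 606 CPM in ac-CYB5R3–KO hearts. Without Fabp4, Aqp1 and Flt1 the sum was 1868 ± 427 CPM in ac-WT and 1699 ± 288 CPM in ac-CYB5R3–KO hearts. As a share of all counts assigned to genes, without scaling, the members took 0.177% to 0.349% (median 0.233%) in ac-WT and 0.227% to 0.395% (median 0.244%) in ac-CYB5R3–KO libraries. The median share was the larger in ac-CYB5R3–KO libraries and the mean scaled sum the larger in ac-WT, so the order of the groups depended on the scaling. Mouse 1 of the ac-WT group had the highest value of its group for 19 members and mouse 3 for 13, whereas mouse 6 had the lowest for 18 and mouse 4 for 16. In the ac-CYB5R3–KO group, mouse 3 was highest for 28 of 38 members and mouse 2 lowest for 19. The coefficient of variation had a median of 26.6% in ac-WT and 22.2% in ac-CYB5R3–KO hearts and was larger in ac-WT for 27 members.

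**Figure D2:**
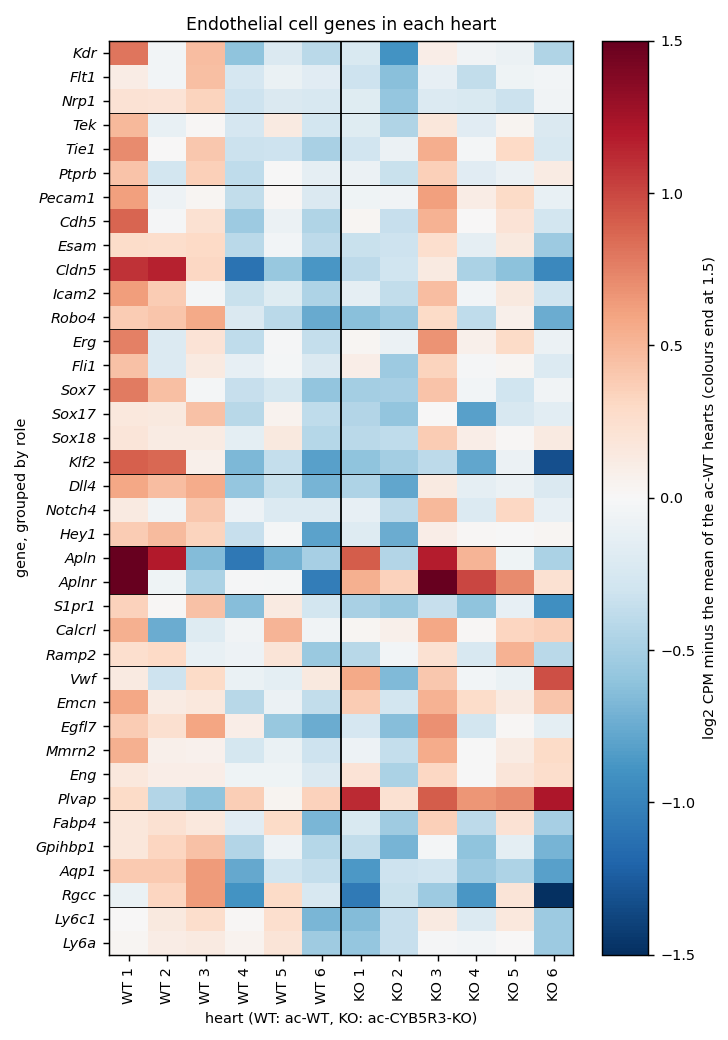
Each cell is the log2 CPM of a gene (y axis, grouped by role) in a heart (x axis, 6 ac-WT left of the vertical line and 6 ac-CYB5R3–KO right of it) minus the mean of the ac-WT hearts, with colours ending at 1.5 in both directions. Red columns at ac-WT mouse 1 and ac-CYB5R3–KO mouse 3 run through most genes, and the row of Plvap is red in all 6 ac-CYB5R3–KO hearts.

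Receptors of the VEGF and angiopoietin systems had lower or near-equal means and none passed the test. Kdr (VEGFR2, the main signaling receptor for VEGF-A) measured 136, 75.9, 107, 51.3, 67.3 and 58.9 CPM in ac-WT mice 1 to 6 and 66.4, 41.8, 83.3, 74.99, 73.6 and 57.1 CPM in ac-CYB5R3–KO mice 1 to 6. The highest was ac-WT mouse 1, the groups overlapped, and the log2 fold change of -0.32 (SE 0.24) had an edgeR p of 0.193. Flt1 (VEGFR1, which traps VEGF ligands) had a log2 fold change of -0.26 with an edgeR p of 0.0803. Nrp1, a coreceptor for VEGF and semaphorins, had one of -0.28 with an edgeR p of 0.0569. Without ac-WT mouse 4, the log2 fold change of Flt1 was -0.31 with an edgeR p of 0.0491. For Nrp1 the edgeR p was 0.0262 without ac-WT mouse 4, 0.0385 without ac-WT mouse 5, 0.0346 without ac-WT mouse 6 and 0.0411 without ac-CYB5R3–KO mouse 6. With total counts both signs turned, to 0.037 for Flt1 and 0.031 for Nrp1.

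Tek encodes TIE2, the receptor for angiopoietins, and ranged from 36.7 to 62.4 CPM in the ac-WT group (median 43.01 CPM) and from 32.4 to 50 CPM in the ac-CYB5R3–KO group (median 39.4 CPM). The ranges overlapped, and its log2 fold change of -0.15 (SE 0.14) had an edgeR p of 0.323. Tie1, the related receptor that modulates TIE2, had nearly the same mean in both groups (57.1 ± 19.7 CPM in ac-WT and 57.1 ± 13.6 CPM in ac-CYB5R3–KO hearts). Ptprb, the phosphatase VE-PTP that dampens TIE2, was at 68.4 ± 16.1 CPM in ac-WT and 66.3 ± 11.5 CPM in ac-CYB5R3–KO hearts. Every sign in this trio turned positive with total counts.

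Among the junction and adhesion genes, Cldn5 had the largest fitted difference and the largest spread. Cldn5, the claudin of endothelial tight junctions, measured 65.9, 69.1, 38.6, 14.4, 20.98 and 17.03 CPM in ac-WT mice 1 to 6 and 23.7, 25.3, 34.1, 22.4, 20.2 and 15.98 CPM in ac-CYB5R3–KO mice 1 to 6. Mice 1, 2 and 3 of the ac-WT group were above every ac-CYB5R3–KO heart, ac-WT mouse 4 was below all of them, and the log2 fold change of -0.67 (SE 0.37) had an edgeR p of 0.0918. That p was 0.0283 without ac-WT mouse 4 and 0.038 without ac-WT mouse 6. Robo4, an endothelial roundabout receptor, had a log2 fold change of -0.35 (SE 0.24). Esam, an immunoglobulin-family protein of tight junctions, had one of -0.16 (SE 0.17), and Icam2, a ligand for leukocyte integrins, one of -0.064 (SE 0.20). Total counts turned the sign of Cdh5, Esam, Icam2 and Robo4 but not that of Pecam1 or Cldn5.

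Of the transcription factors, Klf2 and Sox17 were lower at an unadjusted p below 0.05, and the ETS factors Erg and Fli1 had means close to control. Klf2, the Krüppel-like factor raised by laminar flow, measured 243, 236, 138, 81.9, 102 and 73.98 CPM in ac-WT mice 1 to 6 and 85.95, 91.8, 99.6, 76.1, 123 and 52.4 CPM in ac-CYB5R3–KO mice 1 to 6. Its level was 146 ± 75.9 CPM in ac-WT and 88.1 ± 23.6 CPM in ac-CYB5R3–KO hearts. The difference came with a pair of high controls, ac-WT mice 1 and 2, while ac-WT mice 4, 5 and 6 were within the range of the ac-CYB5R3–KO hearts. The log2 fold change of -0.73 (SE 0.31) had an edgeR p of 0.0335 (adjusted p 0.295) and a two-sided exact permutation p of 0.121. Without ac-WT mouse 1 the edgeR p was 0.102, without ac-WT mouse 2 0.101, and without ac-CYB5R3–KO mouse 1, 4 or 6 it was 0.0534, 0.0665 or 0.072. With both ac-WT mice 2 and 3 left out the log2 fold change was -0.49 with an edgeR p of 0.152.

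Sox17, a SOXF factor of arterial endothelium, measured 14.9, 14.9, 18.3, 10.1, 13.9 and 10.3 CPM in ac-WT mice 1 to 6 and 9.89, 8.89, 13.4, 7.65, 11.4 and 12.03 CPM in ac-CYB5R3–KO mice 1 to 6. It was 13.7 ± 3.12 CPM in ac-WT and 10.6 ± 2.14 CPM in ac-CYB5R3–KO hearts, and ac-CYB5R3–KO mice 3, 5 and 6 lay inside the control range. The log2 fold change of -0.38 (SE 0.17) had an edgeR p of 0.0424 (adjusted p 0.322) and a two-sided exact permutation p of 0.0693. That edgeR p was above 0.05 without ac-WT mouse 1 (0.0759), 2 (0.079), 3 (0.119) or 5 (0.0626) and without ac-CYB5R3–KO mouse 1 (0.0737), 2 (0.0848) or 4 (0.106). It was 0.236 without ac-WT mice 2 and 3 together, with a log2 fold change of -0.21. Its relatives Sox7 and Sox18 had log2 fold changes of -0.20 (SE 0.23) and -0.015 (SE 0.15) and did not pass the test. Erg was at 0.12 (SE 0.20) and Fli1 at -0.047 (SE 0.15) on the same scale.

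Notch and apelin genes did not pass the test. Dll4, the Notch ligand of arteries and tip cells, had a log2 fold change of -0.33 (SE 0.24), Notch4, a receptor of endothelial cells, one of 0.011 (SE 0.16), and Hey1, a target of the pathway, one of -0.17 (SE 0.21). Aplnr, the G protein-coupled apelin receptor, measured 69.1, 21.6, 16.2, 22.1, 21.98 and 11 CPM in ac-WT mice 1 to 6 and 32.4, 28.5, 75.2, 44.96, 36.8 and 26.4 CPM in ac-CYB5R3–KO mice 1 to 6. A single control, ac-WT mouse 1, lay among the highest ac-CYB5R3–KO hearts, and the remaining controls were below every one of them. The log2 fold change of 0.59 (SE 0.40) had an edgeR p of 0.159, and without ac-WT mouse 1 the log2 fold change was 1.13 with an edgeR p of 0.00149. Apln, the ligand, was the scarcest member per length (2.95 CPM per kb of exon in ac-WT hearts) and varied from 3.28 to 23.1 CPM among controls.

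S1pr1 was lower in ac-CYB5R3–KO hearts at an unadjusted p below 0.05. The gene encodes the receptor for sphingosine-1-phosphate that steadies endothelial junctions, and it measured 110.5, 87.9, 118, 55.7, 95.3 and 71.7 CPM in ac-WT mice 1 to 6 and 62.2, 59.1, 68.4, 57.5, 79.7 and 46.2 CPM in ac-CYB5R3–KO mice 1 to 6. Its level was 89.9 ± 23.5 CPM in ac-WT and 62.2 ± 11.3 CPM in ac-CYB5R3–KO hearts. Of the controls, ac-WT mice 1, 2, 3 and 5 were above every ac-CYB5R3–KO heart, and ac-WT mice 4 and 6 lay among them. The log2 fold change of -0.53 (SE 0.18) had an edgeR p of 0.0105 (adjusted p 0.218) and a two-sided exact permutation p of 0.0303. It kept an edgeR p below 0.05 whichever single mouse was left out (0.00141 to 0.0316), but not with total counts (0.272) or without ac-WT mice 2 and 3 together (0.0523). Calcrl and Ramp2 form the adrenomedullin receptor and had log2 fold changes of 0.18 (SE 0.19) and -0.047 (SE 0.18).

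Plvap had the largest log2 fold change of the higher members and the smallest p of all 38. This plasmalemma vesicle protein of caveolar and fenestral diaphragms measured 24.3, 14.7, 13.1, 25.9, 20.5 and 25.4 CPM in ac-WT mice 1 to 6 and 43.5, 23.4, 37.4, 31.6, 32.8 and 46.3 CPM in ac-CYB5R3–KO mice 1 to 6. Its level was 20.7 ± 5.58 CPM in ac-WT and 35.8 ± 8.39 CPM in ac-CYB5R3–KO hearts. Mice 1, 3, 4, 5 and 6 of the ac-CYB5R3–KO group were above every control, and only ac-CYB5R3–KO mouse 2 lay within the control range. The log2 fold change of 0.79 (SE 0.20) had an edgeR p of 0.00149 (adjusted p 0.173) and a two-sided exact permutation p of 0.00866. Its unadjusted p was below 0.05 in all 18 alternative settings, with log2 fold changes of 0.70 to 0.89 over the 12 edgeR fits that each left out 1 mouse, 0.59 without ac-WT mice 2 and 3, and 0.99 with total counts. Those controls, ac-WT mice 2 and 3, had the lowest Plvap of all mice, at 14.7 and 13.1 CPM. Of 4 red blood cell genes, 3 were also higher at an unadjusted edgeR p below 0.05, where 4.91% of all genes were, and none at an adjusted one. Their summed level was 222 to 4486 CPM in ac-WT and 1323 to 12226 CPM in ac-CYB5R3–KO hearts, so the ranges overlapped. The part of red blood cell RNA in the Plvap result was not tested.

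Other surface, secreted and matrix proteins had means near control. Emcn, the endomucin of veins and capillaries, had a log2 fold change of 0.22 (SE 0.18). Mmrn2, a matrix partner of CLEC14A, was at 0.086 (SE 0.17), Eng, a coreceptor for BMP9, at 0.093 (SE 0.13), and Egfl7, a secreted endothelial matrix protein, at -0.12 (SE 0.25). None passed the test. Eng ranged from 93.6 to 121 CPM in the ac-WT group (median 110.2 CPM) and from 78.1 to 135 CPM in the ac-CYB5R3–KO group (median 124 CPM). The edgeR p of Emcn was 0.0384 without ac-WT mouse 1 and 0.0249 with total counts.

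**Figure D3:**
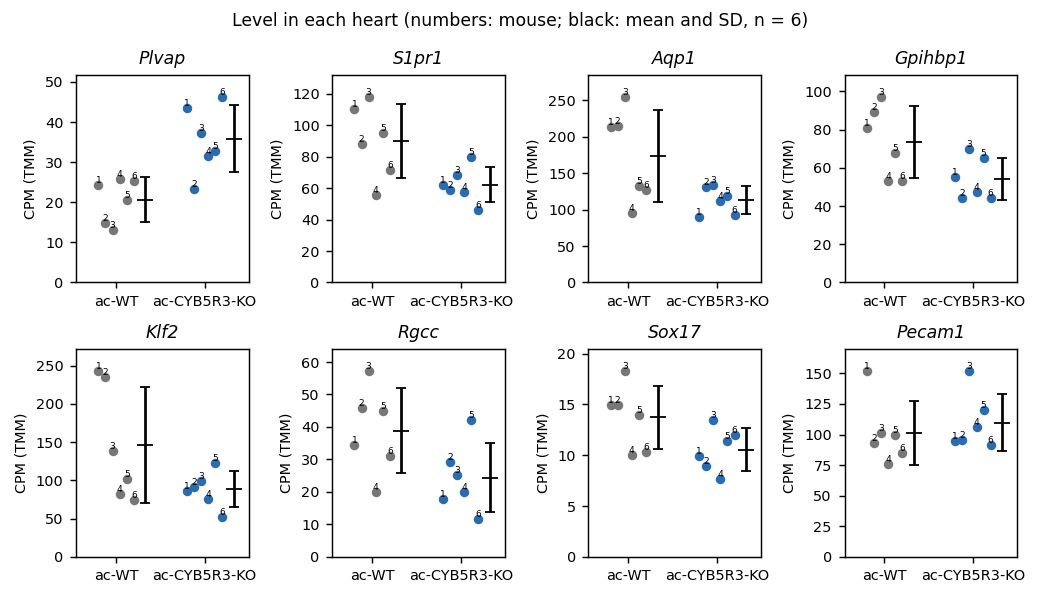
Level of the 7 members with an unadjusted p below 0.05 and of Pecam1, in TMM-scaled CPM (y axes start at 0), in each ac-WT (grey) and ac-CYB5R3–KO (blue) heart, with mouse numbers beside the points and mean and SD in black (n = 6). Plvap has 5 of 6 ac-CYB5R3–KO hearts above all controls, whereas in Klf2 the ac-WT mice 1 and 2 stand above the rest.

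All 4 genes of capillary exchange and metabolism had lower means in ac-CYB5R3–KO hearts, 3 of them at an unadjusted p below 0.05, where 9.73% of all genes were lower, although Fabp4 was at 0.13 on the log2 scale with total counts. None of the 3 had a p below 0.05 without ac-WT mice 2 and 3 or with total counts, when the edgeR p of Gpihbp1 was 0.568 and that of Rgcc 0.244. Aqp1, the water channel of capillary endothelium, measured 214, 215, 255, 96.1, 132 and 127 CPM in ac-WT mice 1 to 6 and 90.02, 132, 134, 112, 119 and 93.02 CPM in ac-CYB5R3–KO mice 1 to 6. It was 173 ± 62.9 CPM in ac-WT and 113 ± 18.8 CPM in ac-CYB5R3–KO hearts, and ac-WT mice 1, 2 and 3 were far above every other heart. The log2 fold change of -0.61 (SE 0.22) had an edgeR p of 0.0152 (adjusted p 0.241) and a two-sided exact permutation p of 0.0628. Its edgeR p was 0.137 without ac-WT mice 2 and 3 and 0.204 with total counts.

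Gpihbp1 anchors lipoprotein lipase on the capillary wall and measured 80.8, 89.4, 97.2, 52.97, 67.9 and 53.2 CPM in ac-WT mice 1 to 6 and 55.4, 44.3, 70.05, 47.2, 64.9 and 44.01 CPM in ac-CYB5R3–KO mice 1 to 6. The ac-WT mice 1, 2 and 3 were again above all ac-CYB5R3–KO hearts, and the other controls lay among them. Its level was 73.6 ± 18.6 CPM in ac-WT and 54.3 ± 11.1 CPM in ac-CYB5R3–KO hearts, and the log2 fold change of -0.44 (SE 0.18) had an edgeR p of 0.0282 (adjusted p 0.277) and a two-sided exact permutation p of 0.0606. That edgeR p was 0.0532, 0.0663 and 0.0808 without ac-WT mouse 1, 2 or 3, and 0.0614, 0.0658 and 0.063 without ac-CYB5R3–KO mouse 2, 4 or 6. Leaving out ac-WT mice 2 and 3 together gave a log2 fold change of -0.22 and an edgeR p of 0.217.

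Rgcc, a regulator of the cell cycle that marks capillary endothelium, measured 34.3, 45.9, 57.2, 19.9, 44.8 and 31.1 CPM in ac-WT mice 1 to 6 and 17.7, 29.3, 25.3, 20.1, 42.1 and 11.7 CPM in ac-CYB5R3–KO mice 1 to 6. The heart of ac-CYB5R3–KO mouse 5 lay among the higher controls, and ac-WT mouse 4 lay among the lower ac-CYB5R3–KO hearts. It was 38.9 ± 13.1 CPM in ac-WT and 24.4 ± 10.6 CPM in ac-CYB5R3–KO hearts, and the log2 fold change of -0.67 (SE 0.29) had an edgeR p of 0.0379 (adjusted p 0.312) and a two-sided exact permutation p of 0.0628. The edgeR p was above 0.05 without ac-WT mouse 2 (0.0733), 3 (0.102) or 5 (0.0672) and without ac-CYB5R3–KO mouse 1 (0.0776), 3 (0.0543), 4 (0.0778) or 6 (0.0735). With ac-WT mice 2 and 3 both left out, the log2 fold change was -0.40 with an edgeR p of 0.222. Fabp4, the fatty acid binding protein of capillary cells, was 683 ± 152 CPM in ac-WT and 606 ± 168 CPM in ac-CYB5R3–KO hearts with a log2 fold change of -0.17 (SE 0.20), and did not pass the test.

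Levels compared between genes per length were highest for members of several roles. Fabp4 was the most abundant member at 1073 CPM per kb of exon in ac-WT hearts, followed by Ly6c1 (154 CPM per kb), Ly6a (152 CPM per kb), Gpihbp1 (92.4 CPM per kb), Klf2 (78.9 CPM per kb) and Aqp1 (65.97 CPM per kb). Fabp4 is also made by adipocytes. Ly6c1 and Ly6a are small surface antigens of mouse endothelial and blood cells with log2 fold changes of -0.24 (SE 0.18) and -0.25 (SE 0.15), and near-identical neighbours in the Ly6 family make their read assignment uncertain. Without ac-WT mouse 6, their edgeR p values were 0.0442 and 0.0214, against 0.209 and 0.111 with all mice.

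**Figure D4:**
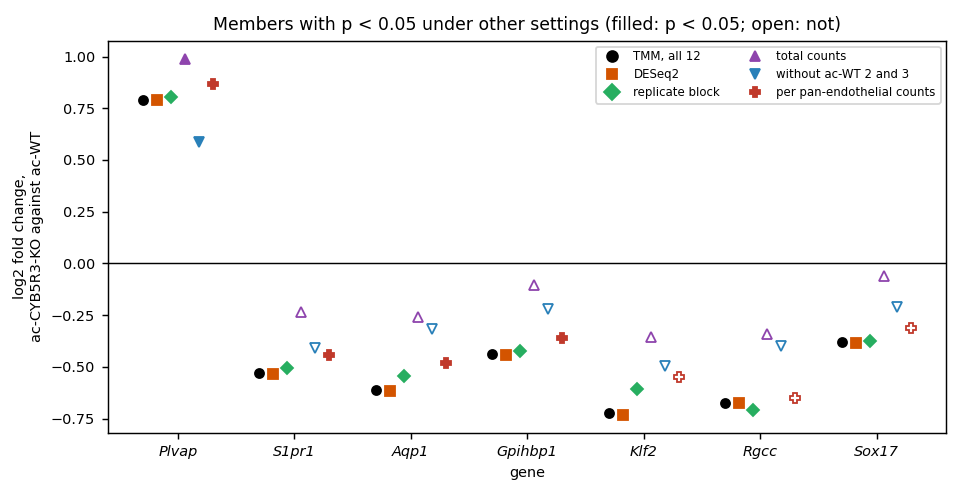
Log2 fold change (y axis) of the 7 members with an unadjusted p below 0.05 (x axis) under edgeR with TMM, DESeq2, the replicate block, total counts, leaving out ac-WT mice 2 and 3, and as a ratio to other endothelial genes. Filled marks have a p below 0.05 in their own test, and Plvap alone is filled under each of the 6 settings plotted.

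Because endothelial RNA as a whole varied between hearts, each member was also expressed per 100 counts of 20 other pan-endothelial genes of the same heart (Cd34, Tal1, Cd93 and others, which hold 30800 to 83816 counts per library). None of these 20 genes was lower or higher at an unadjusted edgeR p below 0.05, and their summed level was 1093 ± 223 CPM in ac-WT and 1046 ± 209 CPM in ac-CYB5R3–KO hearts. The genes do not weigh equally in it: Sparcl1 was the largest part, at 239.9 CPM in ac-WT and 275 CPM in ac-CYB5R3–KO hearts. The ratio was chosen after the data were seen, and its 38 exact permutation tests are not adjusted. It was computed for members only, so no share of all genes is at hand to set beside the members named below. Relative to that sum, 20 members were lower and 18 higher, with a median log2 ratio of -0.055. Pecam1 had groups that did not overlap: its ratio was 10.1, 8.68, 8.78, 8.46, 9.58 and 9.58 in ac-WT mice 1 to 6 and 10.4, 10.6, 10.7, 10.4, 10.4 and 10.4 in ac-CYB5R3–KO mice 1 to 6. Its difference was 0.19 on the log2 scale (exact permutation p 0.00216, the smallest that this design allows). Higher by the same test were Erg (0.21), Aplnr (0.82), Emcn (0.30) and Plvap (0.87), with exact permutation p values of 0.026, 0.026, 0.0476 and 0.026. Lower were S1pr1 (-0.44), Gpihbp1 (-0.36) and Aqp1 (-0.48), with exact permutation p values of 0.013, 0.0152 and 0.0325. Without ac-WT mice 2 and 3, Pecam1 (0.00476), Erg (0.0476) and S1pr1 (0.0476) kept an exact permutation p below 0.05, and that of Plvap was 0.124.

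**Figure D5:**
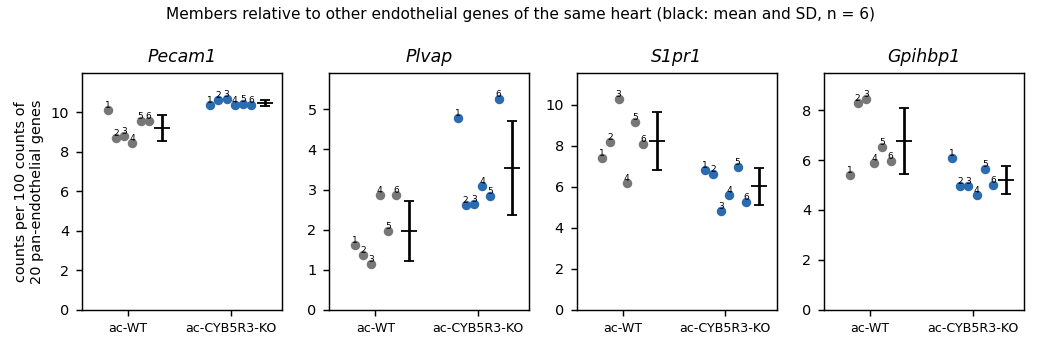
Counts of Pecam1, Plvap, S1pr1 and Gpihbp1 per 100 counts of 20 other pan-endothelial genes of the same heart (y axes start at 0), in 6 ac-WT (grey) and 6 ac-CYB5R3–KO (blue) hearts, with mean and SD in black. The 6 ac-CYB5R3–KO values of Pecam1 sit close together, between 10.4 and 10.7, above all controls.

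Genes that mark the kinds of endothelium were counted by list, against the 9.73% of all genes that were lower and the 4.91% that were higher at an unadjusted edgeR p below 0.05. All 9 capillary genes had lower means with TMM scaling, and 5 had an unadjusted edgeR p below 0.05: Timp4 (-1.20), Car4 (-0.87), Sgk1 (-0.78), Kcna5 (-0.77) and the fatty acid transporter Cd36 (-0.33), values being log2 fold changes. Several of these are also expressed by cardiomyocytes. Of 10 cardiomyocyte markers, 8 had lower means and 2 higher, and 3 were lower at that p (Myl2, Tnni3 and Myh6). The 10 markers summed to 48455 and 38865 CPM in ac-WT mice 2 and 3 and to 20997 to 25804 CPM in the other controls. In ac-CYB5R3–KO hearts the sum was 16119 to 26510 CPM, and the part of cardiomyocyte RNA in the capillary genes was not tested. The count of 5 was 1 without ac-WT mice 2 and 3 and 0 with total counts. Of 10 artery genes, 3 were higher at that p: Fbln5 (1.04), an elastic fiber protein also made by fibroblasts, Unc5b (0.67), a netrin receptor, and Gja4 (0.31), the connexin 37 of arterial endothelium. Of 7 vein genes, Mgp (0.99), a matrix inhibitor of calcification, was higher. Its level was lowest in ac-WT mice 2 and 3, at 212 and 221 CPM, and the cells that supplied its RNA were not identified. The artery count was 3 without ac-WT mice 2 and 3 and 4 with total counts, and the vein count was 1 in both.

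Endocardial and flow-related genes included 3 whose groups did not overlap, Npr3 and Edn1 higher and Gch1 lower, where the groups of 0.51% of all genes were apart and higher and those of 1.04% apart and lower. Npr3, the natriuretic peptide clearance receptor of the endocardium, ranged from 11.7 to 16 CPM in the ac-WT group (median 13.04 CPM) and from 17.2 to 23.2 CPM in the ac-CYB5R3–KO group (median 19.9 CPM). No control reached the lowest of the ac-CYB5R3–KO values, with a log2 fold change of 0.57 (SE 0.10) and an adjusted edgeR p of 0.0554. Cdh11 was also higher (0.63), so that 2 of 6 endocardial genes tested passed an unadjusted p of 0.05, 1 of them (Npr3) without ac-WT mice 2 and 3. Cdh11 was lowest in those mice, at 3.98 and 3.64 CPM, and the cells that supplied its RNA were not identified. Edn1, which encodes the vasoconstrictor endothelin-1, ranged from 5.59 to 6.80 CPM in the ac-WT group (median 6.40 CPM) and from 7.82 to 11.6 CPM in the ac-CYB5R3–KO group (median 9.31 CPM), again without overlap, with a log2 fold change of 0.59 (SE 0.11) and an adjusted edgeR p of 0.079. Gch1, which makes the tetrahydrobiopterin that nitric oxide synthase needs, did not overlap in the other direction, at 8.07 ± 0.703 CPM in ac-WT and 6.16 ± 0.557 CPM in ac-CYB5R3–KO hearts, with a log2 fold change of -0.39 (SE 0.10) and an adjusted edgeR p of 0.173. Klf4, the flow-responsive relative of Klf2, was at -0.83 (SE 0.19, adjusted edgeR p 0.144). Nos3, the endothelial nitric oxide synthase, was 15.7 ± 3.83 CPM in ac-WT and 16.3 ± 3.52 CPM in ac-CYB5R3–KO hearts, with a log2 fold change of 0.052. In the flow list, 2 of 10 genes were lower and 1 higher, a count that held without ac-WT mice 2 and 3. With total counts, 1 was lower (Klf4) and 1 higher (Edn1), and Gch1 was at -0.11 with an edgeR p of 0.541.

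In the ALK1, BMP and Notch list, 2 of 13 genes were lower at an unadjusted edgeR p below 0.05 and 2 higher. Id1, a target of BMP signaling, was 59.8 ± 21.7 CPM in ac-WT and 33.03 ± 5.70 CPM in ac-CYB5R3–KO hearts with a log2 fold change of -0.86 (SE 0.21). The type I receptor Acvrl1 (-0.19) was the other lower gene, and the inhibitor Smad6 (0.31) and the type II receptor Bmpr2 (0.26) were the higher ones. Without ac-WT mice 2 and 3 the counts were 2 lower and 0 higher. Of 10 ligands tested, the VEGF family member Pgf (-0.71) was lower, and Vegfa, which cardiomyocytes supply, had a log2 fold change of -0.82 with an edgeR p of 0.0554. Of 12 genes of activated endothelium and tip cells, Cd276 (0.48) and Col4a2 (0.46) were higher. In the lymphatic list, Lyve1 (-0.68), a hyaluronan receptor also found on macrophages, was lower, 1 of 6. With ac-WT mice 2 and 3 left out, Pgf (-0.36) and Lyve1 (-0.68) were still lower at that p, and Vegfa was at -0.31 with an edgeR p of 0.391. The activated list then held 1 higher gene (Cd276) and 1 lower (Lama4), and Col4a2 was lowest in those mice (192 and 243 CPM). With total counts the edgeR p was 0.0744 for Pgf and 0.144 for Lyve1, and Acvrl1 was at 0.05 (edgeR p 0.809). Id1, Smad6, Bmpr2, Cd276 and Col4a2 kept a p below 0.05 with total counts.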

How the data were processed

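RNA from pulverized frozen hearts was made into stranded total RNA libraries and sequenced as single short reads. The authors deposited one table of read counts per gene and library. Submitters' processing notes name STAR, featureCounts and GRCm39, whereas the study's methods name mm9 and Cuffdiff, so the build is stated differently, and the counting annotation and strand setting are not given in the sources used here. Columns were matched to mice by their titles, with 0 columns unused. Counts were tested with edgeR 4.0.16 in R 4.3.3 (filterByExpr with a minimum count of 10, TMM, quasi-likelihood test, two-sided, Benjamini-Hochberg adjustment over 17847 genes), since count data need a count model. Single values were also compared over all placements of 12 mice, where 0.00216 is the smallest exact p. The code was tested on simulated data. Alternatives were DESeq2 1.42.0, total counts, no count filter, a block for the replicate number, a filter of at least 10 counts in every library, leaving out ac-WT mice 2 and 3, and leaving out each mouse. Lengths for CPM per kb are the exons of an older mouse GENCODE release. Promoters are from RefSeq GRCm38.p6.

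Members and lists were chosen with earlier results of these data known, and no list test is given. Described in full are members with an unadjusted p below 0.05 and Pecam1, Cdh5, Kdr, Tek and Vwf; Cldn5 and Aplnr were added after their values were seen. From other lists, up to 4 genes with the smallest p below 0.05 are named, or else the most abundant, and Kcna5, Nos3, Vegfa and the list examples were added after. Mice with the same replicate number are different animals of different genotypes, and the numbers were not taken as pairs. Libraries held 43393183 to 53754284 counts, and without molecular identifiers counting error covers reads, not molecules.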

Additional observations from a re-analysis of the deposited data

Results flagged for a closer look

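In 4 cases a single mouse lay far from the other 5 of its group, by Dixon's gap-to-range ratio at its 95% critical value, which chance passes in about 1 of 20 groups. The rule was run for all 38 members in both genotypes, so a few such cases arise by chance alone. Pecam1 was highest in ac-WT mouse 1 at 151.9 CPM, where the next mouse had 100.9 CPM. Aplnr was highest in the same mouse at 69.13 CPM, with the next at 22.14 CPM. Ly6c1 was lowest in ac-WT mouse 6 at 78.43 CPM, with the next at 126.9 CPM, and Ly6a was lowest in that mouse at 85.22 CPM, with the next at 125.7 CPM. These values were not removed from the comparisons, and the cause was not tested.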

How the results depend on the processing

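Of the members at an unadjusted p below 0.05, Plvap kept it under all 18 alternatives and S1pr1 and Aqp1 under 16, Klf2 under 11, Gpihbp1 under 10, and Sox17 and Rgcc under 9. Lower members numbered 0 with total counts and 0 without ac-WT mice 2 and 3, and 2 to 10 over the fits without 1 mouse; higher members numbered 2 with total counts and 1 to 3 without 1 mouse. The adjusted p was below 0.05 for 1 member in DESeq2. The median log2 fold change was -0.22 to -0.022 without 1 mouse and 0.19 with total counts. No member whose sign turned had a p below 0.05 with TMM, and the cause was not tested. With total counts they were, as log2 fold changes, Flt1 0.037, Nrp1 0.031, Tek 0.12, Tie1 0.31, Ptprb 0.23, Cdh5 0.26, Esam 0.16, Icam2 0.25, Robo4 0.014, Fli1 0.22, Sox7 0.12, Sox18 0.28, Dll4 0.027, Hey1 0.16, Apln 0.34, Ramp2 0.25, Egfl7 0.23, Fabp4 0.13, Ly6c1 0.061 and Ly6a 0.034. Without ac-WT mice 2 and 3 they were Tie1 0.092, Esam 1.59e-04, Icam2 0.020, Sox18 0.053, Hey1 0.042, Apln 0.057, Calcrl -0.0041, Ramp2 0.0074 and Egfl7 0.10. With no count filter they were Tie1 0.024, Sox18 0.0095 and Apln 0.019, and with at least 10 counts in every library Tie1 0.0029. Over the fits without 1 mouse, ranges that crossed 0 were Apln -0.23 to 0.51, Cdh5 -0.14 to 0.20, Egfl7 -0.32 to 0.018, Erg -5.99e-04 to 0.31, Fli1 -0.12 to 0.055, Icam2 -0.18 to 0.086, Mmrn2 -0.018 to 0.21, Notch4 -0.10 to 0.11, Ptprb -0.13 to 0.048, Ramp2 -0.18 to 0.023, Sox18 -0.10 to 0.054, Tie1 -0.12 to 0.17.

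With the replicate number as a block, 6 members were lower and 1 higher at an unadjusted edgeR p below 0.05, where 8.68% and 6.02% of all genes were. The members' median log2 fold change was -0.12, and the signs of Tie1 0.037, Cdh5 0.027, Notch4 -0.0070 and Apln 0.27 turned. The numbers mark different animals, and the deviations of same-numbered mice correlated at -0.16 to 0.36 over 6 pairs (mean 0.133, against -0.0255 for the other 30 combinations), so no pairing was established. The smallest count of any member in any library was 158 (Apln), so counting error was small beside the spread between mice. Samples are whole tissue, the strand setting is unknown, and blood content was not modeled.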

Other observations

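Genes of smooth muscle and pericytes were counted in the same way, against the 9.73% of all genes that were lower and the 4.91% that were higher. Of 6 smooth muscle genes, 4 were lower at an unadjusted edgeR p below 0.05 (log2 fold changes of Acta2 at -0.89, Myh11 at -0.93, Lmod1 at -0.72 and Smtn at -0.65) and 1, Cnn1 at 1.04, was higher. Acta2, the actin of smooth muscle, was 96.96 ± 30.4 CPM in ac-WT and 52.2 ± 8.47 CPM in ac-CYB5R3–KO hearts with an adjusted edgeR p of 0.144. Without ac-WT mice 2 and 3, 2 of the 6 were lower, Acta2 at -0.78 and Myh11 at -0.36, and 0 higher. Myh11, the myosin of smooth muscle, measured 34.4 and 33.9 CPM in those mice and 11.2 to 16.4 CPM in the other controls. Of 10 pericyte genes, Vtn at -0.64, Abcc9 at -0.64 and Colec11 at -0.34 were lower and Cspg4 at 0.30, the NG2 proteoglycan, was higher. Without that pair of mice, the 1 lower gene was Anpep at -0.61, and the 1 higher gene was again Cspg4, at 0.31. Vtn, Abcc9 and Colec11 then had edgeR p values of 0.215, 0.194 and 0.196. With total counts, 0 pericyte genes were lower and 1 higher, and 2 smooth muscle genes were lower and 1 higher. No gene of either list had an adjusted p below 0.05 in edgeR.

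In the fibroblast list 1 of 8 genes was lower (Gsn at -0.83), in the macrophage list 1 of 8 (Cd163 at -0.96), and in the lymphocyte list 1 of 5 was higher (Cd3g at 1.20, at a low level, 0.302 ± 0.133 CPM in ac-WT and 0.708 ± 0.243 CPM in ac-CYB5R3–KO hearts). Of 5 platelet genes none passed an unadjusted edgeR p of 0.05, and the most abundant, Pf4, was 19.8 ± 4.70 CPM in ac-WT and 13.9 ± 8.04 CPM in ac-CYB5R3–KO hearts. Red blood cell genes were higher for 3 of 4, Alas2 at 1.62, Hba-a1 at 1.61 and Hba-a2 at 1.61, with wide spread between hearts, and the Hba copies share reads. After leaving out ac-WT mice 2 and 3, lower genes numbered 3 of 8 in the fibroblast list, 3 of 8 in the macrophage list and 2 of 10 in the cardiomyocyte list, and higher genes 4 of 4 in the red blood cell list and 1 of 5 in the lymphocyte list. Of the 20 other pan-endothelial genes none passed, and the most abundant, Sparcl1, was 239.9 ± 56.6 CPM in ac-WT and 275 ± 69.04 CPM in ac-CYB5R3–KO hearts.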
